A study of Mus musculus with 12 samples.

Results

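The collagen genes of the mouse were examined as sites of open chromatin in alveolar type II (AT2) cells, the lung epithelium that makes surfactant, sorted from lungs that carried metastases. They were the protein-coding genes of GRCm38 whose symbols read Col, a number, a and a number, which gave 44 genes of 21631 on the autosomes and X. By the form that their proteins take, 11 were fibrillar, 8 belonged to basement membranes and 25 formed a mixed group of beaded filaments, networks, fibril-associated chains and transmembrane chains. Omni-ATAC-seq, in which the transposase Tn5 cuts open DNA in nuclei, was applied to 50000 sorted AT2 cells for each library. The mice were BALB/c, 6 to 8 weeks old, and had received 800000 labelled tumour cells by tail vein 7 days earlier. The 4 groups were CT26 niche, CT26 distal, 4T1 niche and 4T1 distal, where CT26 is a BALB/c colon carcinoma line, 4T1 is a BALB/c mammary carcinoma line, niche cells came from the metastatic niche and distal cells from distal lung. How the AT2 cells were gated is not given in the sources used here. Each group had 3 independent samples, each a pool of 5 lungs. All 4 groups came from tumour-bearing mice, so every comparison is between injected animals, and no lung without tumour cells was analysed here. The study asked how the chromatin of AT2 cells differs beside metastases of either line.

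Collagens are trimers of chains wound into a triple helix. Fibrillar collagens give tissue its tensile strength and are made in the lung mainly by fibroblasts. Type IV collagen forms the sheet-like network of basement membranes, on which alveolar epithelium rests and to which epithelial cells contribute. The remaining chains decorate fibrils, form beaded filaments or anchor cells to the membrane beneath them. An open region at a gene shows where regulatory proteins can reach DNA and is not a measure of the gene's RNA. In sorted bulk cells, fewer cells with an open site and less opening per cell cannot be told apart.

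The niche lists were longer than the distal lists, and the 4T1 lists longer than the CT26 lists. Peaks on autosomes and X numbered 51005 to 55529 in CT26 niche, 42067 to 50093 in CT26 distal, 63722 to 66911 in 4T1 niche and 56330 to 58237 in 4T1 distal libraries. They covered 38.2 to 44.7 Mb in CT26 niche, 31.4 to 34.4 Mb in CT26 distal, 49.1 to 51.9 Mb in 4T1 niche and 42.0 to 45.7 Mb in 4T1 distal libraries. The lists give no read counts, so sequencing depth is unknown and longer lists cannot be told apart from deeper libraries. The lengths under peaks given below are as deposited, whereas log2 changes come from lengths scaled to the mean total covered length, with 500 bp added. Loci with peaks in 3 or more libraries (16823) were tested together, and a call needed a Benjamini-Hochberg p, adjusted over all of them, below 0.05. All 12 AT2 marker loci, among them Sftpb, Sftpc and Abca3, carried a peak in every library.

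Most collagen loci were open somewhere in every library. A locus here is the gene body with 10 kb on each side. Of the 44 collagen loci, 32 (72.7%) carried a peak in all 12 libraries, against 71.2% of all protein-coding loci. Col24a1 and Col6a4 carried none in any library, a share of 4.55% against 19.6% of all loci. Collagen genes are long, and the median collagen locus had 1.83% of its length under peaks, against 3.16% over all loci. That median was 2.18% for fibrillar, 3.10% for basement membrane and 1.53% for the other collagens. The remaining 10 loci were open in some libraries: Col9a2 in 11, Col22a1 in 10, Col1a2 and Col17a1 in 9 each, Col6a5 in 7, Col13a1 in 6, Col5a2 in 4, Col19a1 in 3, and Col3a1 and Col10a1 in 1 each. Col24a1, Col6a4, Col3a1 and Col10a1 therefore fell below the 3 libraries needed for a test, which left 40 loci, 9 fibrillar, 8 of basement membrane and 23 others. Some regions overlap a neighbouring gene: the only Col10a1 region overlaps Nt5dc1, the only Col9a3 region Ogfr, and, by the authors' fold enrichment, the strongest Col4a3 region Mff and the strongest Col8a2 region Adprhl2.

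**Figure D1:**
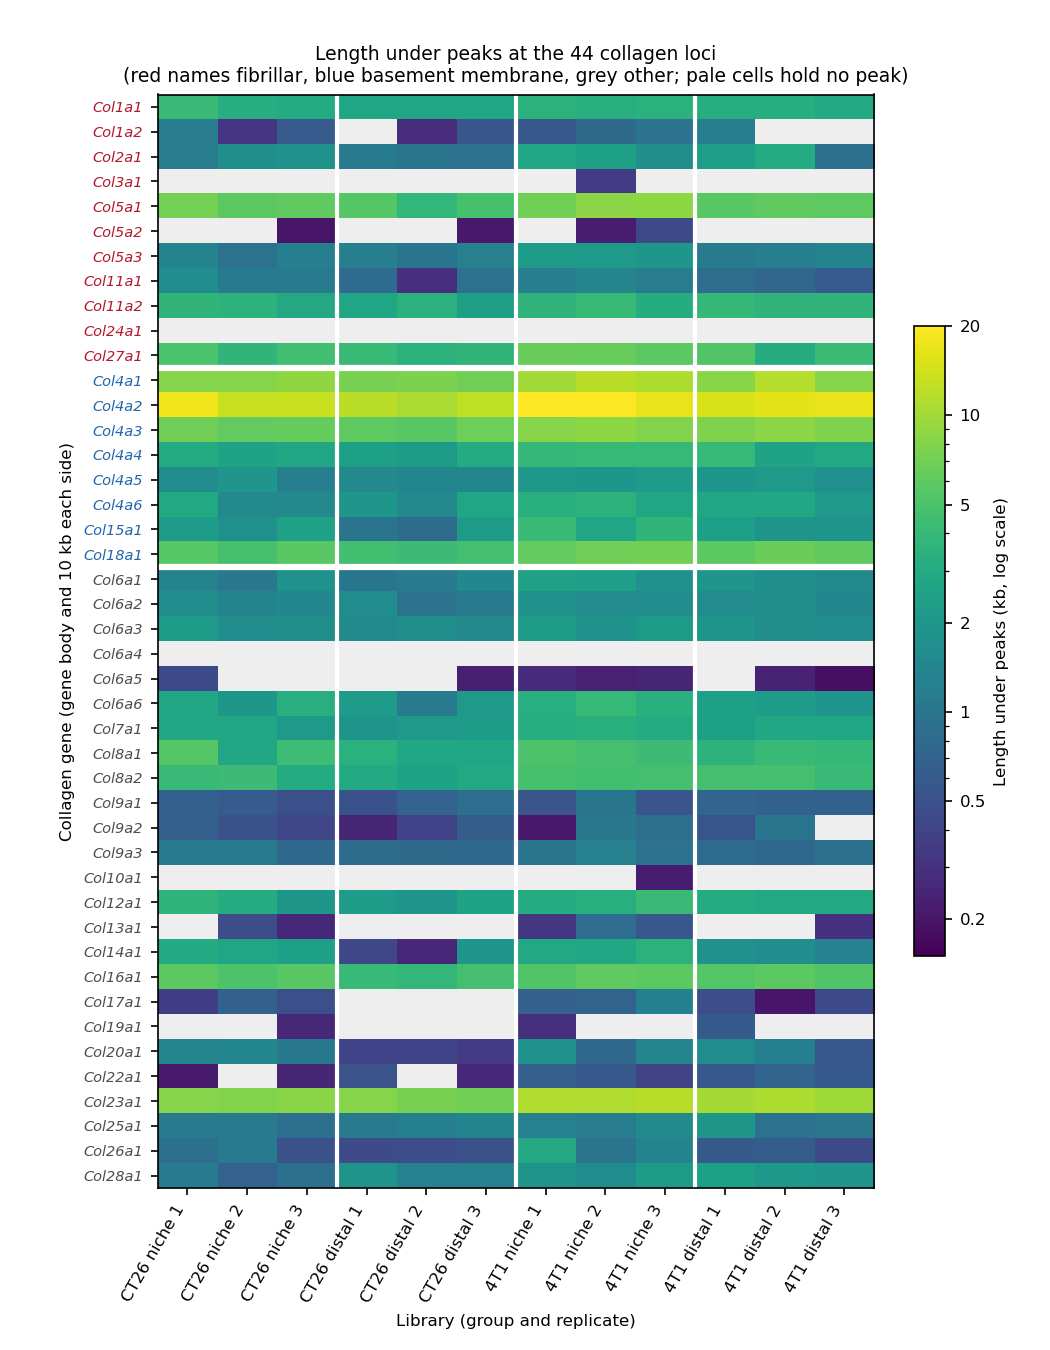
Length under peaks at each of the 44 collagen loci (rows) in each of the 12 libraries (columns), in kb on a log colour scale; pale cells hold no peak. Col4a2 is the brightest row with a mean of 15.4 kb, while Col24a1 and Col6a4 are pale throughout and Col17a1 is pale in the 3 CT26 distal libraries.

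Promoters open in every library were found in all 3 classes. Starts were taken from RefSeq for the 35 members that its table holds, and a promoter was called open in a library if a peak lay within 1 kb of a start. All 12 libraries had an open promoter at 16 of these 35 genes (45.7%), against 58.3% of 17274 protein-coding genes. This was the case for 4 of 8 fibrillar, 5 of 7 basement membrane and 7 of 20 other collagens. No library had an open promoter at 12 collagens (34.3%, against 33.6% of all genes), which included Col3a1, Col15a1, Col17a1, Col20a1 and Col28a1. In windows from 250 bases before to 50 bases after a start, the median G and C content was 63.3% at collagen starts open in all libraries and 52.3% at those open in none. The same medians over all promoters were 62.0% and 47.0%.

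**Figure D2:**
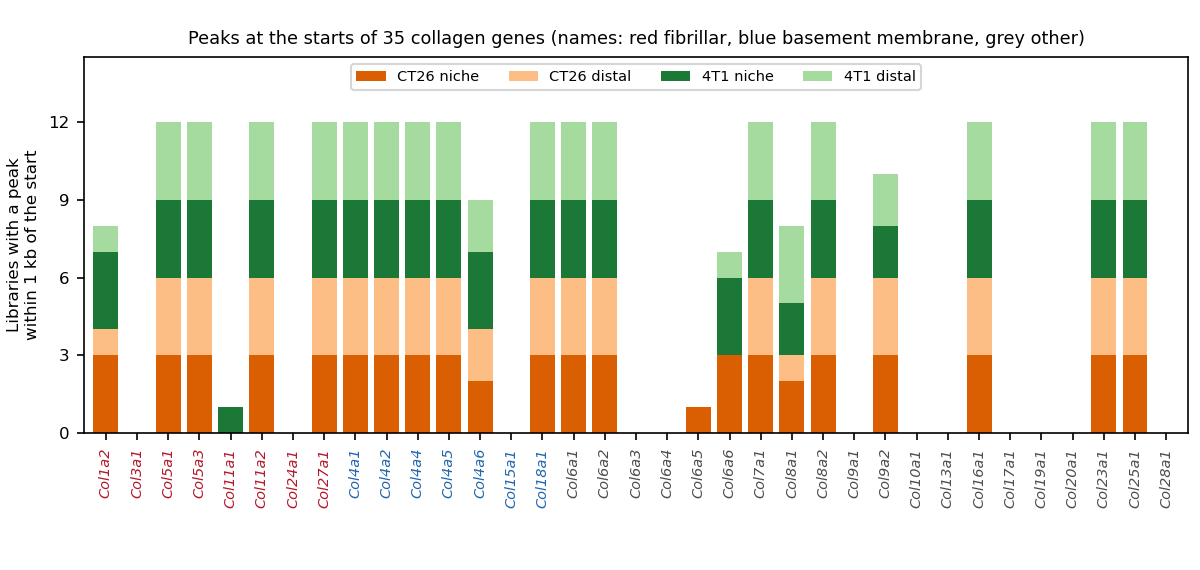
Number of libraries (of 12, stacked by group) with a peak within 1 kb of the RefSeq start of each of 35 collagen genes. Col1a2 and Col6a6 reach 8 and 7 libraries, and in both all 6 niche libraries contribute.

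Basement membrane collagens were the most widely open class. All 8 loci carried a peak in every library, and Col4a2, Col4a1 and Col4a3 were among the 5 collagen loci with the longest mean length under peaks (15.4, 9.03 and 7.22 kb), together with Col23a1 (9.41 kb) and Col5a1 (6.25 kb). Col4a1 and Col4a2 encode the chains that make up the common type IV trimer and are transcribed away from each other. Their RefSeq starts on chromosome 8 lay 21 bp apart. The promoter windows are shown because this shared start was open in all 12 libraries; capitals mark the GC box GGGCGG and the CCAAT box, each searched on both strands, and TATAAA was not found in either. They come from RefSeq on GRCm38.p6, Col4a1 at chr8:11312777-11313076 on the minus strand and Col4a2 at chr8:11312555-11312854 on the plus strand.
Col4a1: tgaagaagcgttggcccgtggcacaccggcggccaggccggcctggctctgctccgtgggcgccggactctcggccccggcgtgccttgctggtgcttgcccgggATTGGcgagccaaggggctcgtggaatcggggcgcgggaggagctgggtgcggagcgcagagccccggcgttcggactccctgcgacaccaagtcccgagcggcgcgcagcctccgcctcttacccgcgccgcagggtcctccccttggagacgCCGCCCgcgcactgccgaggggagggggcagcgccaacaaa
Col4a2: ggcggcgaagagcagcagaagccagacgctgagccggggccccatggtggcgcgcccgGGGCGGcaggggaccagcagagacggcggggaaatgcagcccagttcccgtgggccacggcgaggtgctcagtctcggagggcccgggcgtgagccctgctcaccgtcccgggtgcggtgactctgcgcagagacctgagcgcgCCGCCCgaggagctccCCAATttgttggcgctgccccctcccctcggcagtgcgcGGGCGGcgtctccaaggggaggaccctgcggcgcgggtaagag
The windows share 78 bases on opposite strands. The Col4a1 window held 1 CCAAT box and 1 GC box, and the Col4a2 window held 1 CCAAT box and 3 GC boxes. Over the windows of all 38 collagen starts, 60.5% held a GC box and 34.2% a CCAAT box, against 46.7% and 38.5% of 21045 promoters.

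The paired type IV loci were long in every group. Col4a2 had 17.8, 13.3 and 13.4 kb under peaks in CT26 niche, 12.1, 10.8 and 12.5 kb in CT26 distal, 19.8, 19.8 and 17.1 kb in 4T1 niche and 14.99, 16.4 and 17.1 kb in 4T1 distal libraries. Col4a1 had 8.15, 8.17 and 8.94 kb in CT26 niche, 7.37, 7.57 and 6.96 kb in CT26 distal, 10.16, 11.95 and 10.996 kb in 4T1 niche and 8.37, 11.5 and 8.16 kb in 4T1 distal libraries. In CT26 the niche libraries lay above the distal ones at both loci before scaling, and after scaling the groups overlapped. In 4T1 the groups overlapped at Col4a1 with or without scaling. Neither locus passed the test in any of the comparisons made.

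Col4a3 and Col4a4 encode chains of the type IV network found in alveolar and kidney glomerular basement membranes, and their loci overlap because the genes adjoin. Col4a3 had 6.96, 6.20 and 6.29 kb in CT26 niche, 5.89, 5.57 and 6.77 kb in CT26 distal, 8.20, 8.69 and 7.98 kb in 4T1 niche and 7.70, 8.61 and 7.74 kb in 4T1 distal libraries. Col4a4 had 3.02, 2.51 and 2.79 kb in CT26 niche, 2.44, 2.15 and 3.02 kb in CT26 distal, 3.87, 3.99 and 3.98 kb in 4T1 niche and 3.97, 2.49 and 2.92 kb in 4T1 distal libraries. The unscaled groups overlapped within each model at both loci. After scaling, every niche library lay below every distal library at Col4a3, by -0.17 ± 0.06 (log2, SE) in CT26 and -0.15 ± 0.06 in 4T1, and neither difference passed the limma test (adjusted p = 0.182 and 0.352). Without scaling the differences were positive (0.09 and 0.05) but below the medians over all loci (0.18 and 0.12). On lists cut to an equal number of peaks the CT26 difference was 0.01, against a median of -0.01.

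As a class, basement membrane collagens had a median log2 difference of niche over distal of -0.10 in CT26 and 0.03 in 4T1, against -0.04 and -0.05 over all 16823 loci tested. Of the 8 loci, 2 were positive in CT26 and 5 in 4T1, and none passed. The CT26 median was 0.15 without scaling and 0.14 on peaks with a -log10 q of at least 5, so its sign depends on the processing. Over all loci these medians were 0.18 and -0.09. Col15a1, whose product links basement membrane to the fibrils beneath it, had the only collagen region present in 6 of 6 niche and 0 of 6 distal libraries. That region, chr4:47310730-47311158, lay in the gene body 102932 bp downstream of the start. How many regions elsewhere had this pattern was not counted. On lists cut to an equal number of peaks, 0 of 64 basement membrane regions were niche-only in CT26, and 0 of 64 in 4T1. The Col15a1 locus itself had 2.25, 1.76 and 2.45 kb in CT26 niche, 0.98, 0.84 and 2.19 kb in CT26 distal, 4.09, 2.70 and 3.69 kb in 4T1 niche and 2.39, 1.90 and 1.87 kb in 4T1 distal libraries. It did not pass in either model (limma, adjusted p = 0.356 in CT26 and 0.404 in 4T1).

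Fibrillar collagens ranged from loci open in every library to loci without a peak. Col1a1, which encodes the major chain of type I collagen, had 4.13, 3.17 and 3.05 kb in CT26 niche, 2.67, 2.71 and 2.71 kb in CT26 distal, 3.46, 3.22 and 3.43 kb in 4T1 niche and 3.17, 3.15 and 2.87 kb in 4T1 distal libraries. All niche libraries lay above the distal ones of their model, though not after scaling, when the groups overlapped. Col3a1, the type III chain of soft tissues, carried a single peak in 4T1 niche replicate 2 (0.36 kb) and none in the other libraries. Col5a2 carried peaks of 0.20 to 0.44 kb in 4 libraries.

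Col1a2, which encodes the second chain of type I collagen, had an open promoter mainly in niche libraries. Its locus had 1.19, 0.32 and 0.61 kb in CT26 niche, 0, 0.28 and 0.55 kb in CT26 distal, 0.59, 0.81 and 0.98 kb in 4T1 niche and 1.21, 0 and 0 kb in 4T1 distal libraries. The groups overlapped in both models, since 4T1 distal replicate 1 was above every niche library, and the change over both models did not pass (0.59 ± 0.31, log2 ± SE; limma, adjusted p = 0.259). The promoter region chr6:4505214-4506450 was held by 3 of 3 CT26 niche, 1 of 3 CT26 distal, 3 of 3 4T1 niche and 1 of 3 4T1 distal libraries. In the authors' fold enrichment, a ratio within each list, its promoter peaks stood at 3.36 to 4.96 in CT26 niche, 3.14 in the CT26 distal library that had one, 3.51 to 4.65 in 4T1 niche and 2.96 in the 4T1 distal library that had one. Its promoter (chr6:4505368-4505667, plus strand, RefSeq on GRCm38.p6) is shown with the same motifs in capitals, as the start of a fibrillar gene that more niche than distal libraries held open.
Col1a2: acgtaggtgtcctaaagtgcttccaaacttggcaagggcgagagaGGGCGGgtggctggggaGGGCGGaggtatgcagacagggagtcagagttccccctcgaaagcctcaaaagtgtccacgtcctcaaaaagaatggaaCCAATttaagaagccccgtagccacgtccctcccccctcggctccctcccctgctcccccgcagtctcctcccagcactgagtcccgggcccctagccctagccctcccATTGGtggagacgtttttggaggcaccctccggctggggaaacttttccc
It held 2 CCAAT boxes, 2 GC boxes and no TATAAA.

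A promoter open in all 6 niche and at most 2 of 6 distal libraries, a pattern set out after these values were seen, occurred at 2 of 38 collagen starts (5.26%), against 0.209% of 21045 starts. The reverse pattern occurred at no collagen start and at 0.0095% of all starts. Because the pattern was set with these values in view, the shares are a description and test nothing. The niche lists were longer, and the pattern was not recounted on lists cut to an equal number of peaks. Beside Col1a2 the other gene was Col6a6, which encodes a type VI chain of beaded filaments. Its promoter region, chr9:105826793-105828011, was held by 3 of 3 CT26 niche, 0 of 3 CT26 distal, 3 of 3 4T1 niche and 1 of 3 4T1 distal libraries. The Col6a6 window (chr9:105828036-105828335, minus strand, RefSeq on GRCm38.p6) is given for comparison with Col1a2. Unlike the Col1a2 window, it does not overlap the promoter region named, which lies downstream of the start.
Col6a6: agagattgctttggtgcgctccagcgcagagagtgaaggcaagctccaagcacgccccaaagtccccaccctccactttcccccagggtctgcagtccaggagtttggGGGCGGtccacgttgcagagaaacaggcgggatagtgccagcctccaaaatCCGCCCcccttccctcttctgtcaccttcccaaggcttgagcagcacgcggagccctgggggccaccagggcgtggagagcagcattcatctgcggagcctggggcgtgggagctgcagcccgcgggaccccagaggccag
It held 2 GC boxes and neither a CCAAT box nor TATAAA.

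The fibrillar class had a positive median difference in 4T1, where no locus passed. Its median log2 difference was 0.36 in 4T1, with 7 of 9 tested loci positive, against -0.05 over all loci, of which 38.6% were positive. In CT26 the median was 0.05 with 5 of 9 positive, against -0.04 over all loci. No fibrillar locus passed in CT26 either. The 4T1 median was -0.04 on lists cut to an equal number of peaks and -0.0098 on peaks with a -log10 q of at least 5. Col5a2 is among the positive loci of 4T1 and had no peak in any 4T1 distal library.

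Col5a3, the third chain of type V collagen, was named after its values were seen because it stood apart in a single group. It had 1.36, 0.94 and 1.23 kb in CT26 niche, 1.22, 1.002 and 1.26 kb in CT26 distal, 2.14, 2.12 and 2.02 kb in 4T1 niche and 1.15, 1.23 and 1.36 kb in 4T1 distal libraries. The 3 4T1 niche libraries lay above the other 9, which overlapped. The 4T1 difference was 0.40 ± 0.09 (log2 ± SE; limma, adjusted p = 0.086) and did not pass, nor did the difference between the models' niche effects, CT26 minus 4T1 (-0.60 ± 0.13; limma, adjusted p = 0.159). Of its regions, chr9:20760801-20761287, in the flank beyond the gene's 3′ side, was held by all 3 4T1 niche libraries and no other. On lists cut to an equal number of peaks the 4T1 difference was -0.07.

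Col11a1, a chain that nucleates thin fibrils in cartilage, had 1.65, 1.14 and 1.15 kb in CT26 niche, 0.82, 0.30 and 0.94 kb in CT26 distal, 1.22, 1.39 and 1.17 kb in 4T1 niche and 0.86, 0.75 and 0.61 kb in 4T1 distal libraries. Before scaling, every niche library lay above every distal library of both models. After scaling this held only within each model. The highest CT26 distal library (1.15 kb, scaled) then exceeded the lowest 4T1 niche library (0.995 kb, scaled). The CT26 difference of 0.50 ± 0.19 (log2 ± SE) did not pass (limma, adjusted p = 0.193), and it was 0.22 without CT26 distal replicate 2. Col11a2, its partner chain, had 3.63, 4.03 and 3.13 kb in 4T1 niche and 3.89, 3.63 and 3.66 kb in 4T1 distal libraries. The unscaled groups overlapped, the difference was -0.23 ± 0.13 (limma, adjusted p = 0.450), and a region in its flank overlaps the genes Slc39a7 and Rxrb. Col27a1, a fibrillar chain of cartilage, had 6.56, 6.44 and 5.88 kb in 4T1 niche and 5.28, 3.08 and 4.25 kb in 4T1 distal libraries, groups that did not overlap, and did not pass (limma, adjusted p = 0.315).

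Marker loci of fibroblasts had positive median differences in both models. Of 16 fibroblast and mesenchymal marker loci other than collagens, 10 were tested, and 0 of 10 passed in CT26 or in 4T1. In CT26, 7 of 10 were positive with a median of 0.45, and in 4T1, 10 of 10 with a median of 0.44. Their summed length was 9.06 to 15.4 kb in CT26 niche, 5.20 to 8.75 kb in CT26 distal, 15.4 to 17.5 kb in 4T1 niche and 9.37 to 11.3 kb in 4T1 distal libraries. Twist1, a mesenchymal transcription factor, passed over both models (limma, adjusted p = 0.0448) and had no peak in any 4T1 distal library. It was 1 of 10 tested loci, where 2.38% of all loci passed. Its 4T1 distal group has no spread, so this p-value can be too small. Dcn, Lum, Fgf10, Thy1 and Postn had no peak in any library. The part of these markers in the fibrillar result was not tested.

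The loci that passed the test were in neither of these classes. In CT26 niche against CT26 distal AT2 cells, 2 of 40 collagen loci passed at an adjusted p under 0.05, where 0.672% of all loci did. Col17a1 was higher (0.523% of all loci were) and Col28a1 lower (0.149%). In 4T1, 0 of 40 passed, where 0.624% of all loci did; 7 of the 40 had an unadjusted p under 0.05, against 13.4% of all loci. Over both models Col17a1 and Col28a1 passed again, where 2.38% of all loci did, but this average uses the same CT26 libraries.

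**Figure D3:**
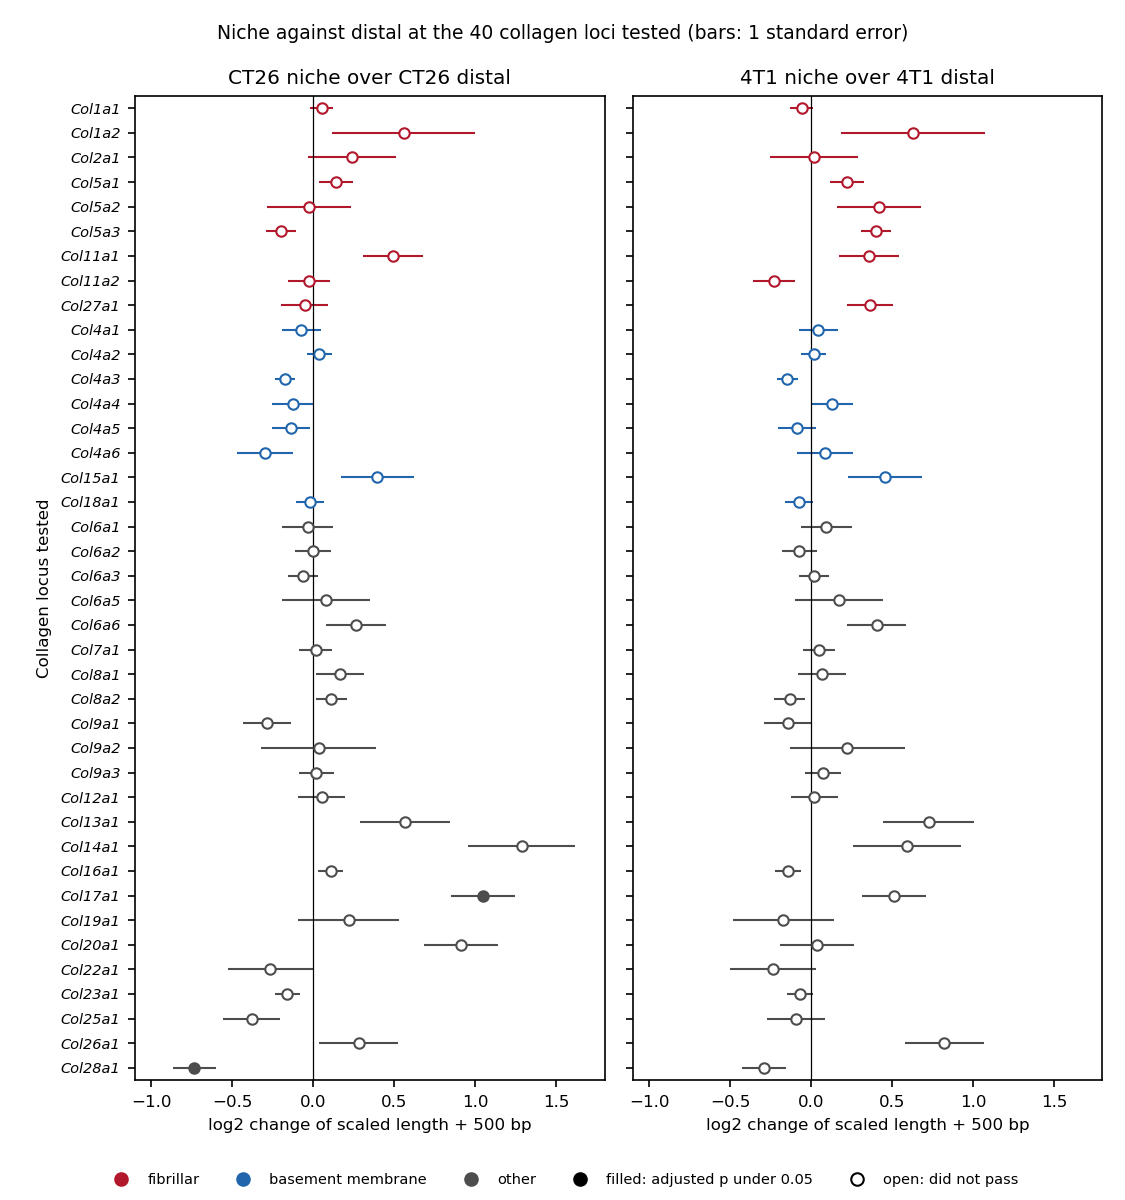
Log2 change of niche over distal (scaled length plus 500 bp, limma) at the 40 collagen loci tested, with bars of 1 standard error, for CT26 on the left and 4T1 on the right; filled points passed. Col17a1 and Col28a1 are the only filled points, both in CT26, and values for loci without a peak in a group depend on the added 500 bp.

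Col17a1 encodes a transmembrane collagen of hemidesmosomes, the structures that fasten basal epithelial cells to the basement membrane. It had 0.37, 0.68 and 0.49 kb in CT26 niche, no peak in CT26 distal, 0.68, 0.71 and 1.25 kb in 4T1 niche and 0.48, 0.20 and 0.45 kb in 4T1 distal libraries. Niche libraries lay above distal libraries in both models without overlap. The higher niche value passed in CT26 (limma, adjusted p = 0.0447) and over both models (limma, adjusted p = 0.0239), whereas 4T1 alone did not pass (0.51 ± 0.20, log2 ± SE; limma, adjusted p = 0.309) and was 0.32 without 4T1 niche replicate 3. No change is given where CT26 distal is compared, because its libraries all lacked a peak; such a group has no spread, so these p-values can be too small. The CT26 call was kept in 2 of 12 fits that each left out 1 library (adjusted p 0.0484 to 0.116), namely those without 4T1 niche replicate 3 and 4T1 distal replicate 2. The call over both models was lost without 4T1 niche replicate 2 or 4T1 niche replicate 3 (limma, adjusted p = 0.0515 and 0.0543). On lists cut to an equal number of peaks, or to peaks with a -log10 q of at least 5, too few libraries held a peak for a test.

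Only 2 regions made up the Col17a1 signal, and the gene's start was closed in all libraries. The region chr19:47674046-47674863, 17588 bp downstream of the start, was held by 3 of 3 CT26 niche, 0 of 3 CT26 distal, 3 of 3 4T1 niche and 3 of 3 4T1 distal libraries. It was a weak peak, at a mean percentile of 7.79 by the authors' -log10 p within the lists that called it. The region chr19:47658826-47659419 was held by 1 of 3 CT26 niche, 0 of 3 CT26 distal, 3 of 3 4T1 niche and 0 of 3 4T1 distal libraries. The promoter, without a peak in any library, is shown in contrast to the open starts above (chr19:47691993-47692292, minus strand, RefSeq on GRCm38.p6; TATAAA and CCAAT in capitals).
Col17a1: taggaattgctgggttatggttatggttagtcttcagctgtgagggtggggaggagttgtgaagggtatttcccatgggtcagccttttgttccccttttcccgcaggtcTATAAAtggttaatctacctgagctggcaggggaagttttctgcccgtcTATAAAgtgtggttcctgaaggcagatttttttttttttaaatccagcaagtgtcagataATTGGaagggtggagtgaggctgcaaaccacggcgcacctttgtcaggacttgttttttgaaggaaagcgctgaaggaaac
It held 2 TATA boxes, 1 CCAAT box and no GC box, and its G and C content was 46.3%, against 74.0% at Col4a1. TATAAA occurred in 13.2% of collagen windows and 12.7% of all windows.

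Col28a1 encodes a short collagen with von Willebrand factor A domains. It was the only collagen locus that passed as lower in the niche, in CT26 and over both models. It had 1.09, 0.70 and 0.91 kb in CT26 niche, 1.89, 1.28 and 1.32 kb in CT26 distal, 1.89, 1.62 and 2.17 kb in 4T1 niche and 2.40, 2.04 and 1.93 kb in 4T1 distal libraries. The CT26 groups did not overlap, and the unscaled 4T1 groups did because of 4T1 niche replicate 3. The change was -0.73 ± 0.13 in CT26 (log2 ± SE; limma, adjusted p = 0.0382), -0.29 ± 0.13 in 4T1 (limma, adjusted p = 0.376) and -0.51 ± 0.09 over both models (limma, adjusted p = 0.0249). The difference between the models' effects, CT26 minus 4T1, was -0.44 ± 0.19 and did not pass (limma, adjusted p = 0.534). The CT26 call was kept in 4 of 12 fits that each left out 1 library (adjusted p 0.0313 to 0.102); those were the fits without CT26 distal replicate 3, 4T1 niche replicate 2, 4T1 niche replicate 3 and 4T1 distal replicate 1. The call over both models was lost without 4T1 niche replicate 1, 4T1 niche replicate 2, 4T1 distal replicate 1 or 4T1 distal replicate 3 (limma, adjusted p 0.0525 to 0.0645).

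Part of the Col28a1 difference lay in a flank region beyond the gene's 3′ side and part in the gene body. The region chr6:7988595-7989287, 203676 bp downstream of the start, was held by 0 of 3 CT26 niche, 3 of 3 CT26 distal, 1 of 3 4T1 niche and 3 of 3 4T1 distal libraries. Within the gene, regions 73731 bp and 146167 bp downstream were held by all 12 libraries. When the locus was limited to the gene body, the CT26 change was -0.52 and no longer passed (limma, adjusted p = 0.105). On lists cut to an equal number of peaks it was -0.81, also without passing (limma, adjusted p = 0.0917).

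**Figure D4:**
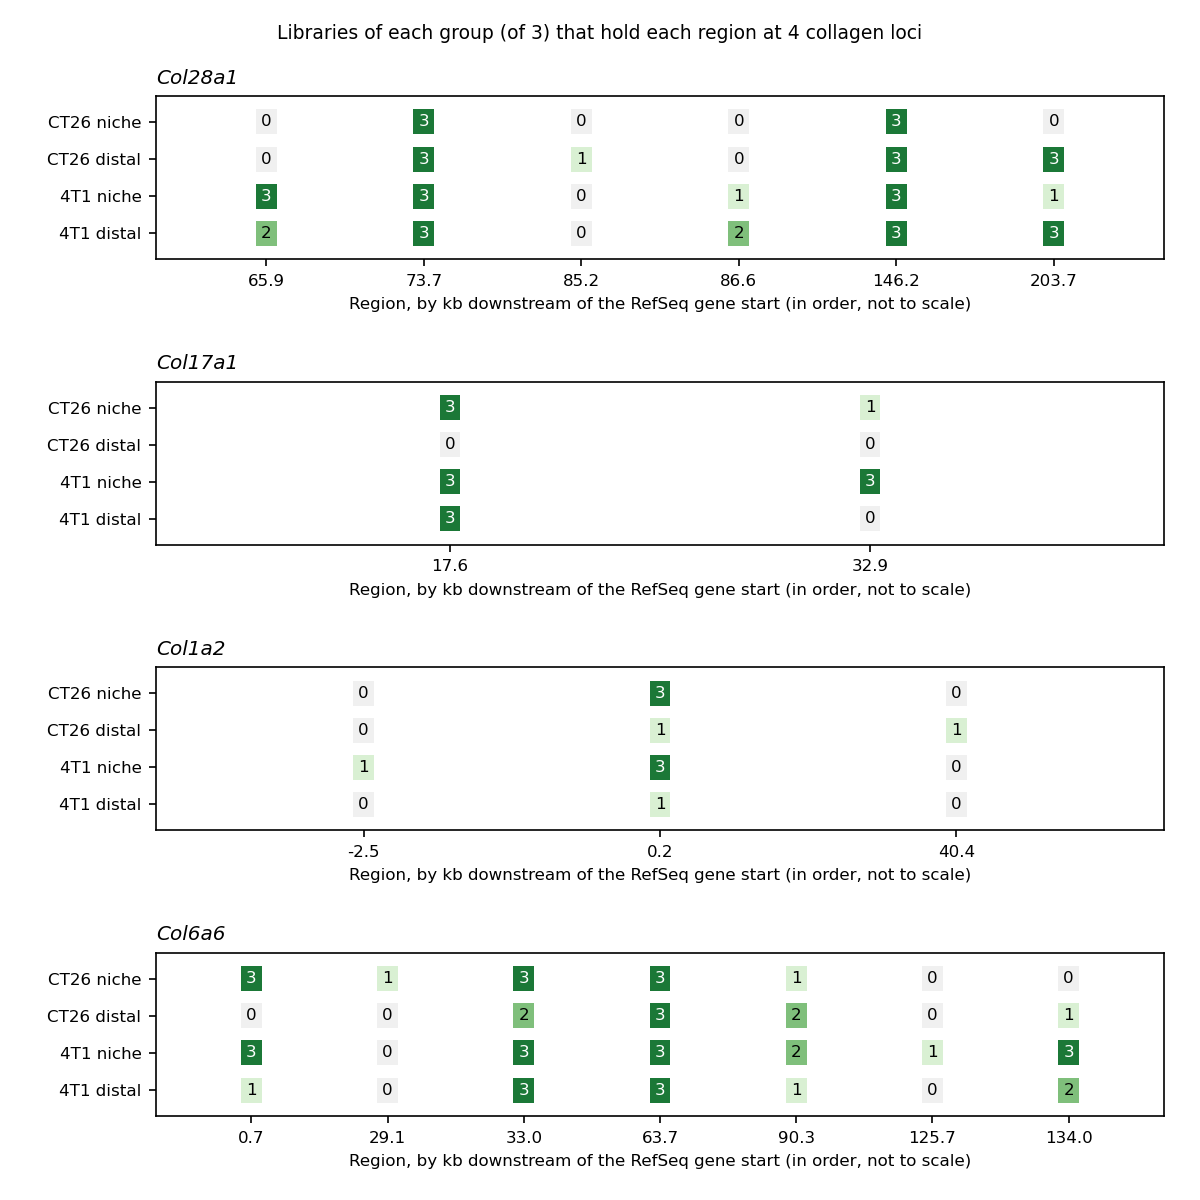
Number of libraries (of 3 in each group) that held each peak region at Col28a1, Col17a1, Col1a2 and Col6a6, in order of distance from the RefSeq start in kb (not to scale). The last Col28a1 region was held by 0, 3, 1 and 3 libraries of CT26 niche, CT26 distal, 4T1 niche and 4T1 distal, and the first Col6a6 region by 3, 0, 3 and 1.

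Complete separation of niche from distal libraries after scaling was found in both directions. In CT26, 4 of 40 loci had every niche library above every distal one (6.76% of all loci) and 3 of 40 had every niche library below (15.3%). In 4T1 the counts were 7 of 40 above (8.08%) and 6 of 40 below (19.5%). Col11a1, Col14a1 and Col17a1 were above in both models (1.28% of all loci), and Col28a1 and Col4a3 were below in both (5.97%). These counts are descriptions, and the collagens were not tested as a set.

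Col14a1 encodes a fibril-associated collagen that binds the surface of fibrils and had the largest fitted CT26 difference among the collagens. It had 3.00, 2.71 and 2.38 kb in CT26 niche, 0.42, 0.26 and 1.91 kb in CT26 distal, 2.90, 2.78 and 3.48 kb in 4T1 niche and 1.77, 1.64 and 1.32 kb in 4T1 distal libraries. Before scaling, all 6 niche libraries lay above all 6 distal ones. After scaling this held only within each model. The highest CT26 distal library (2.34 kb, scaled) then exceeded the lowest 4T1 niche library (2.26 kb, scaled). The differences of 1.29 ± 0.33 in CT26 and 0.59 ± 0.33 in 4T1 (log2 ± SE) did not pass (limma, adjusted p = 0.0953 and 0.446). Without CT26 distal replicate 3, the highest library of its group, the CT26 difference was 1.83 and passed (limma, adjusted p = 0.00032). On lists cut to an equal number of peaks it was -0.22. A small region in the gene body, chr15:55380053-55380292, was held by all 3 4T1 niche libraries and no other.

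Col20a1, another fibril-associated collagen, had 1.38, 1.46 and 1.09 kb in CT26 niche, 0.40, 0.41 and 0.35 kb in CT26 distal, 1.803, 0.80 and 1.39 kb in 4T1 niche and 1.61, 1.24 and 0.57 kb in 4T1 distal libraries. The 3 CT26 distal libraries lay below all others, and the 4T1 groups overlapped. The CT26 difference of 0.91 ± 0.23 (log2 ± SE) did not pass (limma, adjusted p = 0.0876). The region chr2:180996325-180997374 in the gene body was held by 3 of 3 CT26 niche, 0 of 3 CT26 distal, 1 of 3 4T1 niche and 1 of 3 4T1 distal libraries.

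Col26a1 had 0.91, 1.12 and 0.51 kb in CT26 niche, 0.47, 0.48 and 0.51 kb in CT26 distal, 2.89, 0.98 and 1.37 kb in 4T1 niche and 0.60, 0.64 and 0.47 kb in 4T1 distal libraries. In 4T1 every niche library lay above every distal one, and the niche libraries spread widely with replicate 1 highest. The 4T1 difference of 0.82 ± 0.24 (log2 ± SE) did not pass (limma, adjusted p = 0.188), and it was 0.50 without 4T1 niche replicate 1. Its region chr5:136790741-136791238 was held by 1 of 3 CT26 niche, 0 of 3 CT26 distal, 3 of 3 4T1 niche and 0 of 3 4T1 distal libraries.

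**Figure D5:**
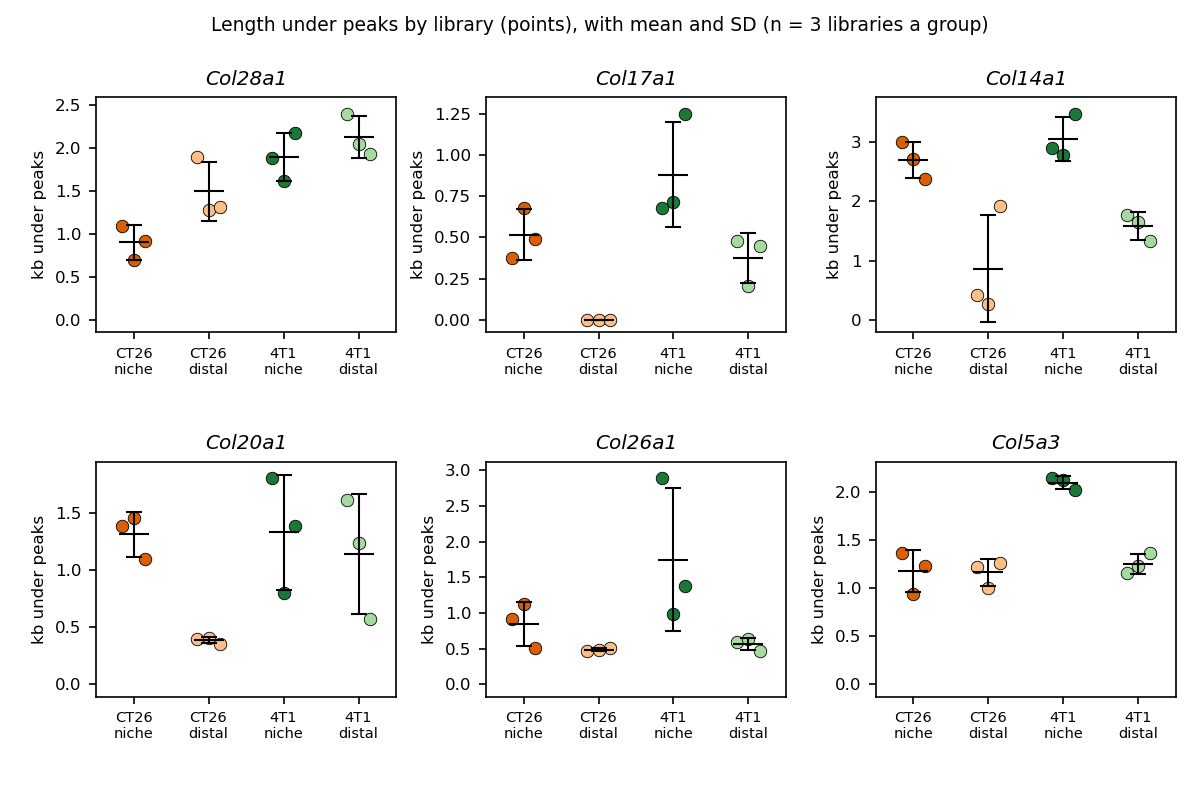
Length under peaks (kb, unscaled) of 6 collagen loci by library, with the mean and SD of the 3 libraries of each group. Col28a1 is lowest in CT26 niche, Col17a1 is at 0 in CT26 distal, and Col5a3 is highest in the 3 4T1 niche libraries.

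The rest of the loci chosen by the size of their non-overlapping difference had smaller differences, none of which passed. Col6a6 had 3.28, 3.97 and 3.36 kb in 4T1 niche and 2.36, 2.26 and 1.94 kb in 4T1 distal libraries, a difference of 0.41 ± 0.18 (log2 ± SE; limma, adjusted p = 0.370). Col25a1, a transmembrane collagen, had 1.12, 1.15 and 0.89 kb in CT26 niche and 1.13, 1.24 and 1.36 kb in CT26 distal libraries, a difference of -0.38 ± 0.18 (limma, adjusted p = 0.269). Col22a1, a fibril-associated chain, had 0.66, 0.59 and 0.39 kb in 4T1 niche and 0.59, 0.74 and 0.60 kb in 4T1 distal libraries, a difference of -0.23 ± 0.26 (limma, adjusted p = 0.718) that was -0.14 without 4T1 niche replicate 3. Both had unscaled groups that overlapped. Of the long loci, Col23a1, a transmembrane collagen, had 8.24, 7.96 and 8.31 kb in CT26 niche, 8.29, 7.31 and 7.10 kb in CT26 distal, 11.2, 11.2 and 11.9 kb in 4T1 niche and 10.4, 11 and 9.94 kb in 4T1 distal libraries. Col5a1, the main type V chain, had 7.13, 5.83 and 6.05 kb in CT26 niche, 5.49, 3.87 and 4.82 kb in CT26 distal, 7.03, 8.497 and 8.65 kb in 4T1 niche and 5.67, 6.07 and 5.95 kb in 4T1 distal libraries. Niche libraries lay above distal ones in both models at Col5a1 before scaling, and the groups overlapped after it. The mixed group of other collagens had a median difference of 0.05 in CT26 and 0.04 in 4T1.

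Seen region by region, niche-only regions outnumbered distal-only ones in the full lists. Merging the peaks of all libraries gave 261 regions at collagen loci, of which 92 (35.2%) were held by all 12 libraries, against 42.1% of 83727 regions. In CT26, 8 collagen regions (3.07%) were held by all niche and no distal libraries, against 1.56% of all regions, and 1 (0.383%) by all distal and no niche libraries, against 0.136%. In 4T1 these were 10 (3.83%), against 2.59%, and 0, against 0.143%. On lists cut to an equal number of peaks, 173 collagen regions remained. In CT26, 1 of them was niche-only (0.578%, against 1.05% of all regions) and 2 were distal-only (1.16%, against 0.618%). In 4T1, 3 were niche-only (1.73%, against 0.924%) and 1 was distal-only (0.578%, against 0.716%). The CT26 order of niche-only over distal-only regions was thus turned round on these lists.

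The niche-only regions beyond those named above lay in gene bodies. In CT26 they were chr4:63288429-63288920 in Col27a1, chr8:11395871-11396394 in Col4a2, which all 4T1 libraries also held, and chr16:57647366-57647648 and chr16:57686104-57686808 in Col8a1. In 4T1 they were chr4:63316125-63316618 in Col27a1, chr8:11411628-11412533 in Col4a2, chr1:82525952-82526362 in Col4a4, chr9:108978012-108978574 in Col7a1 and chr16:57671546-57672180 in Col8a1. Col7a1 encodes the collagen of anchoring fibrils, and Col8a1 a short-chain network collagen. Col27a1, Col4a2 and Col8a1 thus each had a niche-only region in both models, at different places in the gene. How many genes elsewhere had this was not counted, and these 3 loci are long. On lists cut to an equal number of peaks, 1 collagen region was niche-only in CT26 and 3 in 4T1.

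Between the models few collagen loci differed. CT26 niche against 4T1 niche gave 0 of 40 loci past the test, where 0.82% of all loci passed, and 4 of the 40 had an unadjusted p under 0.05, against 26.6% of all loci. Nearest were Col1a1 (0.31 ± 0.07, log2 ± SE; limma, adjusted p = 0.0616), Col5a3 (-0.38 ± 0.09; limma, adjusted p = 0.0617) and Col28a1 (-0.53 ± 0.13; limma, adjusted p = 0.0643). The unscaled Col1a1 groups overlapped. CT26 distal against 4T1 distal gave 1 of 40, Col17a1, which was lower (limma, adjusted p = 0.0497), where 5.02% of all loci passed. The call was kept in 1 of 12 fits that left out a library, the fit without CT26 niche replicate 1. For the difference of the niche effect between the models, 0 of 40 passed, where 0.0594% of all loci did, and 4 of the 40 had an unadjusted p under 0.05, against 8.81% of all loci. One region in the flank of Col23a1, chr11:51591013-51591851, was held by all 6 4T1 and no CT26 libraries, a pattern of 0.299% of all regions, and it overlaps the gene Phykpl. The reverse pattern was found at no collagen locus and at 0.00239% of all regions.

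Of the genes that process and bind collagen, 2 passed in 4T1 niche against 4T1 distal cells (0.624% of all loci did) and none in CT26 (0.672%). How these 2 held under the alternative settings was not examined. Of 21 hydroxylases, glycosyltransferases and chaperones, 0 passed between niche and distal, with medians of -0.02 in CT26 and -0.03 in 4T1. Of 11 tested propeptide proteases and crosslinking enzymes, 7 were positive in each model, with medians of 0.06 in CT26 and 0.30 in 4T1, and 1 passed in 4T1. It was Adamts2, the protease that removes the amino-terminal propeptide of fibrillar procollagens. It had 2.47, 1.42 and 1.02 kb in CT26 niche, 1.10, 0.60 and 0.47 kb in CT26 distal, 3.58, 4.07 and 4.07 kb in 4T1 niche and 0.84, 1.01 and 0.60 kb in 4T1 distal libraries. The 4T1 groups lay far apart and the CT26 groups overlapped, with changes of 1.56 ± 0.22 in 4T1 (log2 ± SE; limma, adjusted p = 0.00741) and 1.09 ± 0.15 over both models (limma, adjusted p = 0.00701).

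Of 10 collagen receptors, 1 passed in 4T1 and 0 in CT26. It was Ddr2, a receptor tyrosine kinase that binds fibrillar collagen. It had 1.85, 0.79 and 1.10 kb in CT26 niche, 0.75, 0.79 and 0.72 kb in CT26 distal, 2.94, 4.41 and 4.18 kb in 4T1 niche and 0.82, 0.81 and 0.81 kb in 4T1 distal libraries. The 4T1 niche libraries lay above all others. The change was 1.51 ± 0.17 in 4T1 (log2 ± SE; limma, adjusted p = 0.00239) and 0.88 ± 0.12 over both models (limma, adjusted p = 0.00596), and CT26 niche was below 4T1 niche (-1.07 ± 0.17; limma, adjusted p = 0.0188). Of 12 genes of the TGF-beta arm, which drives collagen expression in fibroblasts, 0 passed between niche and distal. In the comparison of the distal groups, 1 of 21 hydroxylases, glycosyltransferases and chaperones and 1 of these 12 passed, where 5.02% of all loci did. Between CT26 distal and 4T1 distal, Smad3, a transducer of that arm, was lower (-0.35 ± 0.09, log2 ± SE; limma, adjusted p = 0.0478). Mia3, which loads procollagen into transport carriers, was higher (0.30 ± 0.07; limma, adjusted p = 0.0469), but its unscaled mean length was 3.38 kb in CT26 distal and 3.56 kb in 4T1 distal libraries.

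Markers of further cell types are given because sorted cells can hold others. Over both models, Sftpb, an AT2 surfactant gene, was lower in the niche (-0.36 ± 0.07, log2 ± SE; limma, adjusted p = 0.0249), while Pdpn of the AT1 list (0.65 ± 0.11; limma, adjusted p = 0.0197) and Pecam1 of the endothelial list (0.70 ± 0.16; limma, adjusted p = 0.0433) were higher. These were 1 of 12, 1 of 8 and 1 of 9 tested loci, where 2.38% of all loci passed. Of the 8 AT1 loci, 3 were positive over both models with a median of -0.02, and 2 were positive in 4T1 with a median of -0.07. Pdpn also passed in CT26 by 0.92 ± 0.16 (limma, adjusted p = 0.0364), where 0.672% of all loci did. Before scaling, the endothelial loci summed to 15.3 to 20.1 kb in CT26 niche, 12.99 to 15.05 kb in CT26 distal, 22.8 to 27.5 kb in 4T1 niche and 17.2 to 19.5 kb in 4T1 distal libraries, with Emcn and Ednrb at no peak in any library. After scaling, 4 of 9 tested endothelial loci were positive in CT26 with a median of -0.13, and 8 of 9 in 4T1 with a median of 0.06. Over both models, 5 of 9 were positive with a median of 0.13. Between the models, Slc34a2 of the AT2 list and Itgam and Cd3e of the leukocyte list were lower in CT26 distal than in 4T1 distal libraries, and Cd3e lower in CT26 niche than in 4T1 niche libraries. In the distal comparison these were 1 of 12 AT2 and 2 of 7 tested leukocyte loci, where 5.02% of all loci passed. Of the same loci, 6 of 12 and 3 of 7 were positive there. Between niches Cd3e was 1 of 7, where 0.82% of all loci passed. Cd3e had no peak in CT26 distal libraries, so the p-value behind its distal call can be too small. No leukocyte locus passed between niche and distal, and no locus of the mammary or intestinal carcinoma lists passed in any comparison. S100a9, Ms4a1, Krt5 and Krt20 had no peak in any library. The part of these markers in the collagen results was not tested.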

How the data were processed

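The authors deposited 1 list of broad peaks for each of 12 Omni-ATAC-seq libraries. MACS2 and bedtools, without versions, and the build GRCm38 are named per the submitters' processing notes; the sources used here give no aligner, filter or peak setting. The columns used are start and end in bp, the deposited fold enrichment (a ratio within each list) and the deposited -log10 p and -log10 q of each peak. Read counts are not used here, so depth is unknown and no counting interval is given. Only the 19 autosomes and X were used. Length under peaks was summed per protein-coding locus (gene body and 10 kb each side), scaled to the mean total covered length, and log2 values with 500 bp added went into a linear model (limma 3.58.1, R 4.3.3; means of 4 groups, trend, 8 residual degrees of freedom, 16823 loci with a peak in at least 3 of 12 libraries). Calls used a Benjamini-Hochberg adjusted p under 0.05 over all loci. The log2 scale understates changes of short lengths. Regions are peaks of all libraries merged where they overlapped; a library holds a region that any of its peaks touches. Promoters and starts came from RefSeq (GRCm38.p6); 9 members without a start there were left out of promoter shares.

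Members and lists were chosen with earlier results of these data known. Collagens with values per library, in at least the model compared, are those past the threshold in any comparison, the 4 largest rises and 4 largest falls with non-overlapping groups in each niche comparison, the 5 longest loci, and Col1a1, Col1a2, Col3a1, Col4a1, Col4a2, Col4a3, Col4a4 and Col28a1. Col5a3, Col15a1 and Col27a1 were added after their values were seen. Genes of the other lists are named where past the threshold, and values per library of Adamts2 and Ddr2 were given after theirs were seen. In data simulated for the CT26 comparison, over 16823 loci, changes of 0.5 and 1 (log2) were called in 45% and 94% of changed loci. The simulation put normal noise around the mean of each locus and did not reproduce libraries without a peak. Its shares therefore do not apply to loci with such libraries, as at Col17a1. Alternatives changed the scaling, the peaks kept, the pseudocount, the flank, the filter, the measure, the trend and the replicate block, and left out each library.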

Additional observations from a re-analysis of the deposited data

How the results depend on the processing

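The number of collagen loci past the test depended on the processing. The share of all tested loci past the test moved with it and is given in brackets. In CT26 niche against distal, 2 passed, against 5 without scaling (12%), 0 on lists cut to an equal number of peaks (0.517%), and 1 each with a pseudocount of 2000 bp (0.636%) and with flanks of 0, 2 or 50 kb (0.898%, 0.619% and 1.69%). In 4T1, 0 passed, against 1 without scaling (Col5a3; 3.38%) and 1 by number of peaks (Col26a1; 1.40%). Over both models, 2 passed, against 17 without scaling (23.7%), 0 at equal numbers of peaks (0.61%), 1 each with flanks of 0 and 2 kb (2.74% and 2.38%) and 5 by number of peaks (2.09%). For CT26 niche against 4T1 niche, 0 passed, against 5 without scaling (14.6%), 2 with 50 kb flanks (2.69%) and 3 by number of peaks (30.0%). For CT26 distal against 4T1 distal, 1 passed, against 9 without scaling (29.0%), 8 at a -log10 q of at least 5 (32.5%), 3 by number of peaks (29.2%), and 0 each at equal numbers of peaks (0.399%), a pseudocount of 2000 bp (5.36%) and 50 kb flanks (4.24%). For the difference of niche effects, 0 passed, against 1 at a -log10 q of at least 5 (Col6a1; 0.517%). Leaving out 1 library gave 0 to 2 in CT26, 0 in 4T1, 0 to 4 over both, 0 to 1 between niches, 0 to 1 between distal groups and 0 to 1 for the difference. Without scaling, the median over all loci was 0.15 (log2) over both models.

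With the replicate number as a block, 0 collagen loci passed in CT26 (0.0476% of all loci), over both models (0.481%) and between the distal groups (0.357%). Whether same-numbered niche and distal samples share lungs is not given in the sources used here. In CT26, deviations of same-numbered libraries correlated at -0.044 to 0.018 across loci, and those of differently numbered ones at -0.093 to 0.092. In 4T1 the ranges were 0.029 to 0.089 and -0.060 to 0.025. Whether the numbers pair these samples is thus not settled, and the block is given as an alternative.

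Class medians moved as well. Without scaling they were 0.29 (fibrillar, CT26), 0.15 and 0.23 (basement membrane, CT26 and 4T1) and 0.20 and 0.20 (other, CT26 and 4T1), and by number of peaks the 4T1 median of the others was 0.15. Medians over all loci without scaling were 0.18 in CT26 and 0.12 in 4T1. The fibrillar 4T1 median was -0.038 at equal numbers of peaks and -0.0098 at a -log10 q of at least 5. The basement membrane CT26 median was -0.0073 at equal numbers, 0.14 at that q, -0.013 with no flank and 0.014 with 50 kb. Leaving out 1 library gave fibrillar medians of 0.03 to 0.13 (CT26) and 0.22 to 0.36 (4T1), basement membrane medians of -0.12 to -0.06 and -0.04 to 0.04, and other medians of 0.02 to 0.11 and -0.02 to 0.04.

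Single loci turned direction, and the cause was not tested. Col11a2 in 4T1 was 0.19 at a -log10 q of at least 5, 0.00026 with 50 kb flanks and 0.14 by number of peaks. Col14a1 in CT26 was -0.22 at equal numbers of peaks, and Col25a1 in CT26 0.078 at that q. Col4a3 without scaling was 0.089 in CT26 and 0.047 in 4T1, below the medians over all loci (0.179 and 0.117), and at equal numbers 0.013 in CT26. Col5a3 in 4T1 was -0.067 at equal numbers and -0.13 at that q, and between niches 0.016 at equal numbers. Niche-only regions in CT26 (8) were 5 where a peak had to cover 50% of the region and 1 at equal numbers; distal-only regions in CT26 (1) were 2 at equal numbers and 0 at that q. In 4T1, niche-only regions (10) were 3 at equal numbers, distal-only regions (0) 1 at equal numbers and 1 at that q, and the region held by 4T1 libraries alone was lost (0) at equal numbers.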
